A study of Mus musculus with 15 samples.

Results

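Toll-like receptors (TLRs) and the proteins that fold, carry or couple them were followed through B cell activation as 10 genes: the receptors Tlr1, Tlr3, Tlr4, Tlr7 and Tlr9, the TLR relative Cd180, the co-receptor chains Ly86 and Ly96, the chaperone Unc93b1 and the adaptor Myd88. They were taken by name from the 54838 genes of the deposited count table, and all 10 were present and passed the filter on low counts. RNA sequencing covered 15 libraries from B cells of mouse spleen, in 5 groups of 3 replicates lettered A, B and C. In the 3 activated groups, naive B cells had spent 5 days in culture in a medium made for embryonic stem cells, and were titled CD40 (antibody to CD40 at 5 µg/ml), CpG (unmethylated CpG DNA at 2 µM) or LPS (lipopolysaccharide at 25 µg/ml). Mouse IL-4 at 80 ng/ml is named with the antibody to CD40, and the labels do not settle whether CpG and LPS cultures also received it. The other 2 groups were germinal centre (GC) B cells and naive B cells, both sorted from spleen and taken as uncultured from their labels. All groups came from wild-type (WT) males, 3 months old and immunised with sheep red blood cells for 9 days, so the naive cells too came from immunised animals. The series text names 3 x 2 individual mice, and nothing says which animals a letter stands for or whether cells were pooled. The p-values therefore measure the spread between libraries, which may be technical.

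TLRs are innate receptors for microbial products, and B cells use them beside their antigen receptor. TLR3, TLR7 and TLR9 sense double-stranded RNA, single-stranded RNA and unmethylated CpG DNA inside endosomes, and reach these compartments with the chaperone UNC93B1. TLR1 works at the cell surface as a partner of TLR2 on bacterial lipopeptides, and TLR4 with its chain MD-2, encoded by Ly96, binds lipopolysaccharide. CD180, also called RP105, resembles TLR4 outside the cell but lacks its intracellular signalling domain, and is held at the surface of B cells by MD-1, encoded by Ly86. MYD88 couples all of these TLRs except TLR3 to the kinases that activate NF-kappaB. CpG and LPS, used here to activate cells, are ligands of TLR9 and of the TLR4 and MD-2 complex.

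Libraries held 25397624 to 36272197 counts. Cd79a, a signalling chain of the B cell receptor, was present in every library, at 884 to 1150 CPM (counts scaled to the size of each library) in activated libraries, 1490 to 1540 CPM in GC and 1940 to 2840 CPM in naive. A 6-gene GC list summed to 485 to 1090 CPM in activated libraries, 2060 to 2320 CPM in GC and 71.4 to 129 CPM in naive. Naive replicate B stood apart, with 11523 genes detected and red cell and neutrophil transcripts such as Hbb-bs at 137 CPM and Mpo at 26.8 CPM. Naive replicate A also had few genes detected, 13920, against 18866 in naive C and at least 16314 in every activated and GC library. Values are CPM after trimmed mean of M values scaling unless stated, and in bulk RNA fewer cells of a type and less RNA per cell cannot be told apart. A gene was called when edgeR's quasi-likelihood test gave an adjusted p (Benjamini-Hochberg over all genes tested) under 0.05. Differences are log2 fold changes ± SE.

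GC cells held almost no Tlr7 mRNA and carried less Tlr9, Unc93b1 and Tlr1 than naive cells, while Cd180, Ly86, Ly96, Myd88, Tlr3 and Tlr4 were not called. That is 4 of 10 members lower and none higher, against 34.5% of all genes called in GC against naive (16.5% lower and 17.9% higher). Against naive cells, activated cells had 6 members lower (Cd180, Tlr1, Tlr3, Tlr4, Tlr9 and Unc93b1) and 2 higher (Tlr7 and Ly96), against 42.9% of all genes called (19.4% lower and 23.4% higher). Their median log2 fold change was -1.21, beside 0.17 over all genes tested. Set against GC cells, activated cells were lower in 4 members (Cd180, Tlr1, Tlr3 and Tlr4) and higher in Tlr7, against 37.0% of all genes called (17.7% lower and 19.4% higher). When the activated libraries of each letter were summed, 4 of the 8 calls against naive remained (Cd180, Tlr1, Tlr3 and Unc93b1), and the same 5 members were called against GC. Over all genes the summed fit called 2102 higher and 1428 lower of 16012 against naive. Against GC it called 4203 higher and 3307 lower of 16699.

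**Figure D1:**
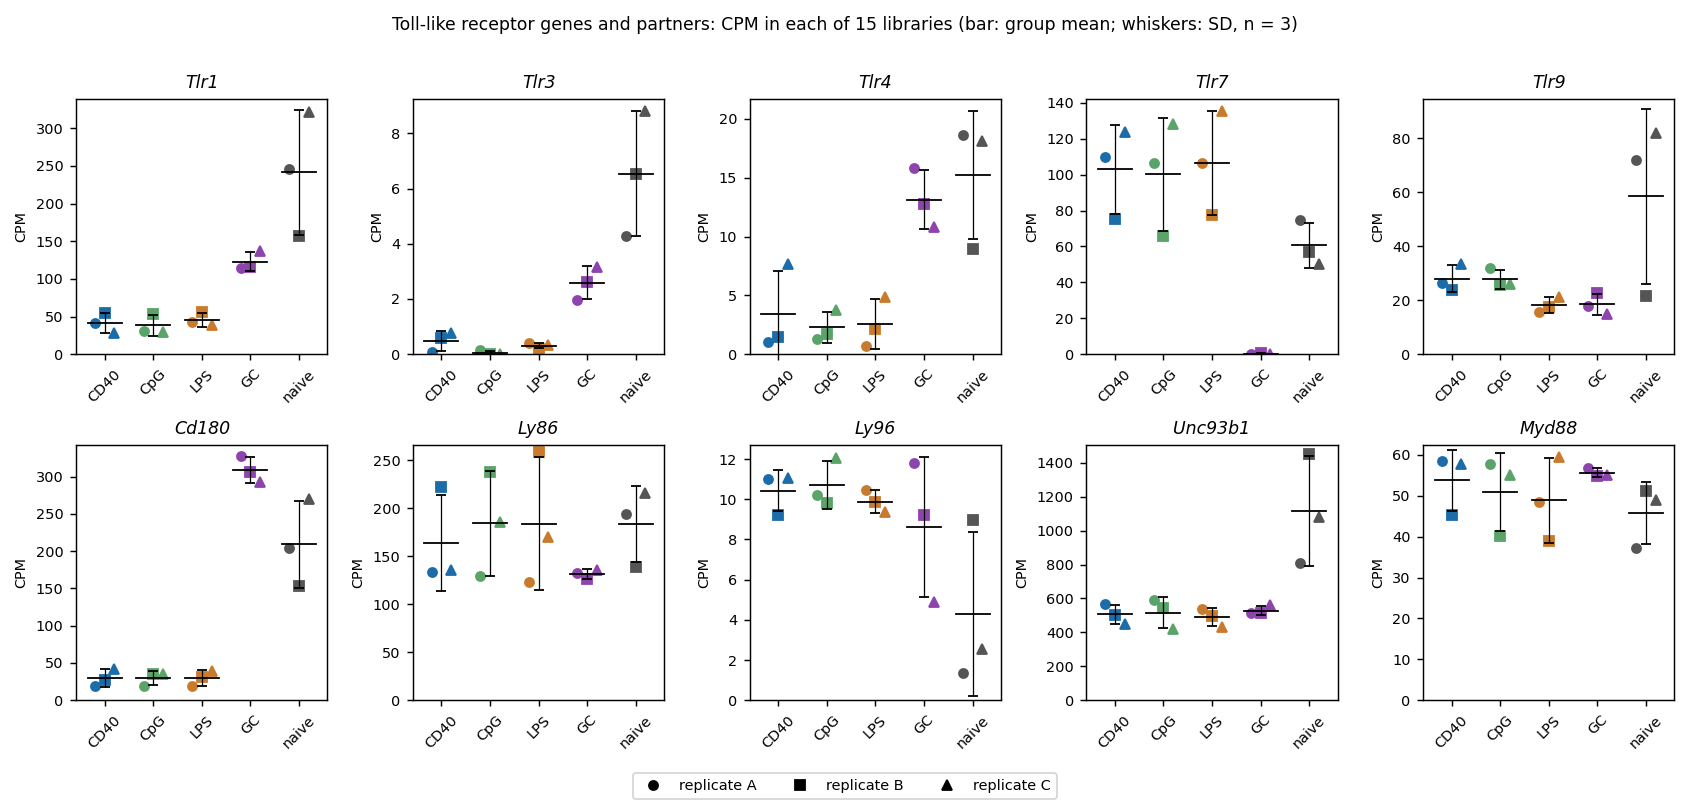
CPM (vertical axes, linear, from 0) of the 10 members in each of the 15 libraries by group, with circles, squares and triangles for replicates A, B and C, bars at group means and whiskers of 1 SD (n = 3). Tlr7 stands at 66.0 to 136 CPM in activated libraries, at or under 0.382 CPM in GC and at 50.5 to 74.9 CPM in naive, while Cd180 is lowest in the activated libraries and highest in GC.

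Of the 6 members that were lower in activated than in naive cells, 4 have an entry among the RefSeq promoters used here (GRCm38.p6). Their sequences, from 250 bases before to 50 after the transcription start, are shown because all 4 shared that fall. In GC against naive they differed, with Tlr9 and Tlr1 called lower and Tlr3 and Cd180 not called. Capitals mark matches to motifs searched on both strands: the octamer ATGCAAAT, the PU.1 motif GAGGAAGT and the kappaB consensus of NF-kappaB. In 32851 promoters of this length these were found in 1.74%, 3.2% and 8.46%, and matches in the members did not overlap one another.
Tlr9, chr9:106222348-106222647, plus strand: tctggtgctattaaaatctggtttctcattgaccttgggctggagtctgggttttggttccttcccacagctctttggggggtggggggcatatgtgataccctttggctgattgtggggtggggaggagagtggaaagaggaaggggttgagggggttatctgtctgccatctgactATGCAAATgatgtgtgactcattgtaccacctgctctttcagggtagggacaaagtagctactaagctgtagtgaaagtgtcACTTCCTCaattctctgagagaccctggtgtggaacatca
Tlr3, chr8:45410331-45410630, minus strand: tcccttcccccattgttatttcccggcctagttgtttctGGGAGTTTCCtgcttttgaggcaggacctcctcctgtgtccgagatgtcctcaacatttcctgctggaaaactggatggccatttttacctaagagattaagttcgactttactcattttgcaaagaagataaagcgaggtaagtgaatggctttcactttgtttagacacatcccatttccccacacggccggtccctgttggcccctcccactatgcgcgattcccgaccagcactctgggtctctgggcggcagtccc
Tlr1, chr5:64933509-64933808, minus strand, the first of its 2 listed starts: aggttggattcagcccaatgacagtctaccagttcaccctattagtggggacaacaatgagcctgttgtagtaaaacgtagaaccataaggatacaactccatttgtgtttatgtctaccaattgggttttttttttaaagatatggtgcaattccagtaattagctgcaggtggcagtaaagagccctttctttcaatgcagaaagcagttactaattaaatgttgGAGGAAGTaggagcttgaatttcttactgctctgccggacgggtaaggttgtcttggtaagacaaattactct
Cd180, chr13:102693297-102693596, plus strand, the first of its 2 listed starts: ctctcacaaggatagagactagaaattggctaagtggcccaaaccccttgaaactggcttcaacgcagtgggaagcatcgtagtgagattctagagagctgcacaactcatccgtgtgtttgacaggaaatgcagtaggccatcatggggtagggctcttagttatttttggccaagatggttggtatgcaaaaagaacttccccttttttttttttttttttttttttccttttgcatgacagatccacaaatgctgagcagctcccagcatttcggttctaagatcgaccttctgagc
The Tlr9 window held an octamer beginning 72 bases before the start and a PU.1 motif, read on the opposite strand, beginning at base 11 after it. The Tlr3 window held a kappaB match 211 bases before the start and the Tlr1 window a PU.1 match 23 bases before it. The window of the other listed Tlr1 start, which is not printed, held no match. The Cd180 window held none of these motifs, although both of its starts were searched. In all, 6 of the 10 members had an entry, and the windows of the other 2, Ly86 and Myd88, held no match. No motif was shared by all 4 printed windows, and a match is a run of letters, not a site shown to be used.

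Tlr7, the endosomal sensor of single-stranded RNA, spans 167304929 to 167330558 on the minus strand of chromosome X (GRCm38). In activated cells it measured 110, 75.6 and 123 CPM in CD40 libraries A, B and C, 106, 66.0 and 128 CPM in CpG libraries, and 107, 77.7 and 136 CPM in LPS libraries. GC libraries held 0.127, 0.382 and 0.330 CPM, and naive libraries 74.9, 56.7 and 50.5 CPM. GC libraries were thus near 0, and the GC values rest on 4, 14 and 10 counts against 2724, 1667 and 1455 counts in naive libraries. The fold change of GC against naive was -7.73 ± 0.42 (adjusted p = 7.46e-09, edgeR), or 212-fold lower, and every alternative tried kept the call. Activated cells were 360-fold higher than GC cells (log2 8.49 ± 0.42, adjusted p = 3.17e-09). Their excess over naive cells was small, 0.77 ± 0.25 (adjusted p = 0.023). CpG replicate B lay inside the naive range, and the excess was not called without naive replicate B (adjusted p = 0.0682), without naive replicate C (0.0738) or with activated libraries summed per letter (0.0664).

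Tlr9, the endosomal DNA sensor for which CpG is the ligand, spans 106222598 to 106226883 on the plus strand of chromosome 9. It stood at 26.2, 23.9 and 33.5 CPM in CD40 libraries, 31.8, 25.7 and 25.9 CPM in CpG libraries and 15.7, 17.3 and 21.3 CPM in LPS libraries. GC libraries held 17.7, 22.8 and 15.03 CPM, and naive libraries A, B and C held 71.9, 21.6 and 81.9 CPM. Naive replicate B therefore lay inside both the GC and the activated range, and the other naive libraries lay above every library of those groups. Tlr9 was lower in GC than in naive cells (-1.66 ± 0.36, adjusted p = 0.00253), a call kept in every alternative. The fall in activated cells was -1.28 ± 0.27 (adjusted p = 0.00163) and was not called with libraries summed per letter (adjusted p = 0.105). The difference between activated and GC cells was not called (0.38 ± 0.30, adjusted p = 0.349).

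Tlr3, the endosomal sensor of double-stranded RNA, spans 45395665 to 45411080 on the minus strand of chromosome 8 and was the lowest member in activated and naive cells on a per-length scale. The CD40 libraries held 0.0621, 0.573 and 0.774 CPM, CpG libraries held 0.136 CPM in replicate A and none in B and C, and LPS libraries held 0.396, 0.203 and 0.333 CPM. GC libraries held 1.97, 2.62 and 3.16 CPM, and naive libraries 4.29, 6.53 and 8.81 CPM. All 9 activated libraries lay below all GC libraries, which lay below all naive libraries. The activated values rest on 73 counts over 9 libraries, against 602 counts over 3 naive libraries, and 0 counts in CpG B and C allow up to 0.111 and 0.0929 CPM (3 counts, counting error only). The fall against naive was -5.07 ± 0.75 (adjusted p = 8.04e-05) and against GC -3.74 ± 0.74 (adjusted p = 0.00105). Without CpG replicate A, which leaves the CpG cells at 0 counts, the fitted values were -6.21 and -4.98, and these depend on the prior count. For GC cells the value of -1.34 ± 0.97 against naive was not called (adjusted p = 0.314).

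Unc93b1, which carries the endosomal receptors out of the endoplasmic reticulum, spans 3935186 to 3949340 on chromosome 19 and was the most abundant member per kilobase of exon in every group. It measured 565, 505 and 448 CPM in CD40 libraries, 592, 541 and 419 CPM in CpG libraries and 536, 499 and 434 CPM in LPS libraries, then 513, 513 and 560 CPM in GC libraries and 808, 1454 and 1079 CPM in naive libraries. Naive libraries lay above all others. The fall was -1.14 ± 0.15 in activated cells (adjusted p = 3.5e-05) and -1.07 ± 0.20 in GC cells (adjusted p = 0.00077). Activated against GC gave -0.07 ± 0.16, which was not called (adjusted p = 0.787).

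Tlr1, the lipopeptide receptor chain, spans 64924679 to 64933563 on the minus strand of chromosome 5. It held 42.0, 55.1 and 28.5 CPM in CD40 libraries, 30.7, 53.9 and 30.0 CPM in CpG libraries and 42.9, 56.5 and 38.3 CPM in LPS libraries. GC libraries held 114, 116 and 137 CPM and naive libraries 246, 157 and 322 CPM. The 3 levels did not overlap. Tlr1 fell in activated cells, with log2 fold changes of -2.53 ± 0.22 against naive (adjusted p = 4.59e-07) and -1.55 ± 0.22 against GC (adjusted p = 7.33e-05). The GC fall of -0.98 ± 0.30 (adjusted p = 0.0188) was not called without GC replicate A (adjusted p = 0.102), GC B (0.0956), GC C (0.057) or naive C (0.123). Of the 50-base windows of Tlr1 exons, 13.6% occur also in Tlr6, and how reads with several matches were counted is not given in the sources used here.

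Tlr4 spans 66827584 to 66930284 on the plus strand of chromosome 4. The CD40 libraries A, B and C held 0.993, 1.46 and 7.67 CPM, CpG libraries 1.29, 1.74 and 3.78 CPM and LPS libraries 0.726, 2.11 and 4.88 CPM. GC libraries held 15.8, 12.8 and 10.8 CPM and naive libraries 18.6, 8.97 and 18.1 CPM. All activated libraries lay below all others, and those lettered C were highest for each stimulus. The receptor was lower in activated cells than in naive (-2.49 ± 0.56, adjusted p = 0.00245) and GC cells (-2.28 ± 0.57, adjusted p = 0.00527). GC and naive cells overlapped (-0.21 ± 0.75, adjusted p = 0.872). With libraries summed per letter the fall against naive was -2.46, with an adjusted p of 0.0549.

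Ly96, the MD-2 chain without which TLR4 does not bind lipopolysaccharide, spans 16688051 to 16709611 on chromosome 1 and moved the other way from Tlr4. It held 9.23 to 12.1 CPM over the 9 activated libraries, with a median of 10.2 CPM, then 11.8, 9.22 and 4.88 CPM in GC libraries and 1.37, 8.97 and 2.57 CPM in naive libraries A, B and C. Naive replicate B, the library with red cell and neutrophil transcripts, was the high naive value. Its 5-gene neutrophil list summed to 49.9 CPM, with Mpo, Elane and S100a9 at 26.8, 7.68 and 12.8 CPM. That list summed to at most 0.929 CPM in activated and 0.396 CPM in GC libraries, and to as little as 0.208 CPM in the other naive libraries, and its part in the Ly96 value was not tested. The difference between activated and naive cells was 1.26 ± 0.48 (adjusted p = 0.0442) and was called in 9 of 19 alternatives, which gave adjusted p-values of 0.00011 to 0.284. The call was lost without CD40 A or C, CpG C, LPS A, B or C, or naive A or C (adjusted p 0.0501 to 0.146). Between GC and naive cells it was 1.00 ± 0.54 (adjusted p = 0.172). Without naive replicate B the activated value was 2.40 (adjusted p = 0.00011), the GC value was 2.13 (adjusted p = 0.00056), and those of CD40, CpG and LPS cells were 2.41 (0.00027), 2.45 (0.000247) and 2.33 (0.000343).

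Cd180, the TLR4 relative found on B cells, spans 102693558 to 102739629 on the plus strand of chromosome 13, and was 7.02-fold lower in activated than in naive cells. It held 18.9, 27.1 and 42.4 CPM in CD40 libraries, 19.5, 35.3 and 34.6 CPM in CpG libraries and 18.9, 31.8 and 39.2 CPM in LPS libraries. GC libraries held 327, 307 and 293 CPM and naive libraries 204, 153 and 270 CPM. The lowest GC library lay above the highest naive library, and every activated library lay below both. The difference of activated cells was -2.81 ± 0.24 from naive (adjusted p = 4.11e-07) and -3.38 ± 0.24 from GC (adjusted p = 7.87e-08). Between GC and naive cells it was 0.56 ± 0.32 and not called (adjusted p = 0.196), although a fit of those 2 groups alone gave 0.65 (adjusted p = 0.0473). Cd180 exons share 182 bases with Mast4 on the opposite strand, and whether counting used strand is not given in the sources used here.

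Ly86, the MD-1 chain that accompanies CD180, spans 37345208 to 37419036 on the same chromosome and did not follow its partner. It held 134, 222 and 136 CPM in CD40 libraries, 129, 238 and 185 CPM in CpG libraries and 123, 259 and 170 CPM in LPS libraries. GC libraries held 132, 126 and 136 CPM and naive libraries 194, 139 and 216 CPM. All of these ranges overlapped except those of GC and naive. No comparison of groups was called, with -0.05 ± 0.23 in activated cells against naive (adjusted p = 0.889), -0.48 ± 0.28 in GC cells against naive (adjusted p = 0.213) and 0.43 ± 0.24 in activated cells against GC (adjusted p = 0.178).

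Myd88, the adaptor, spans 119335934 to 119341411 on the minus strand of chromosome 9 and was called in no comparison of the 3 cell states. It ranged over 38.8 to 59.5 CPM in the 9 activated libraries with a median of 55.2 CPM, and held 56.9, 54.8 and 55.2 CPM in GC libraries and 37.2, 51.3 and 48.8 CPM in naive libraries. The log2 difference was 0.16 ± 0.16 for activated against naive (adjusted p = 0.446), 0.28 ± 0.20 for GC against naive (adjusted p = 0.29) and -0.12 ± 0.16 for activated against GC (adjusted p = 0.604). Its exons share 290 bases with Acaa1a on the opposite strand, as those of Tlr3 share 381 bases with the antisense gene Gm45542.

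**Figure D2:**
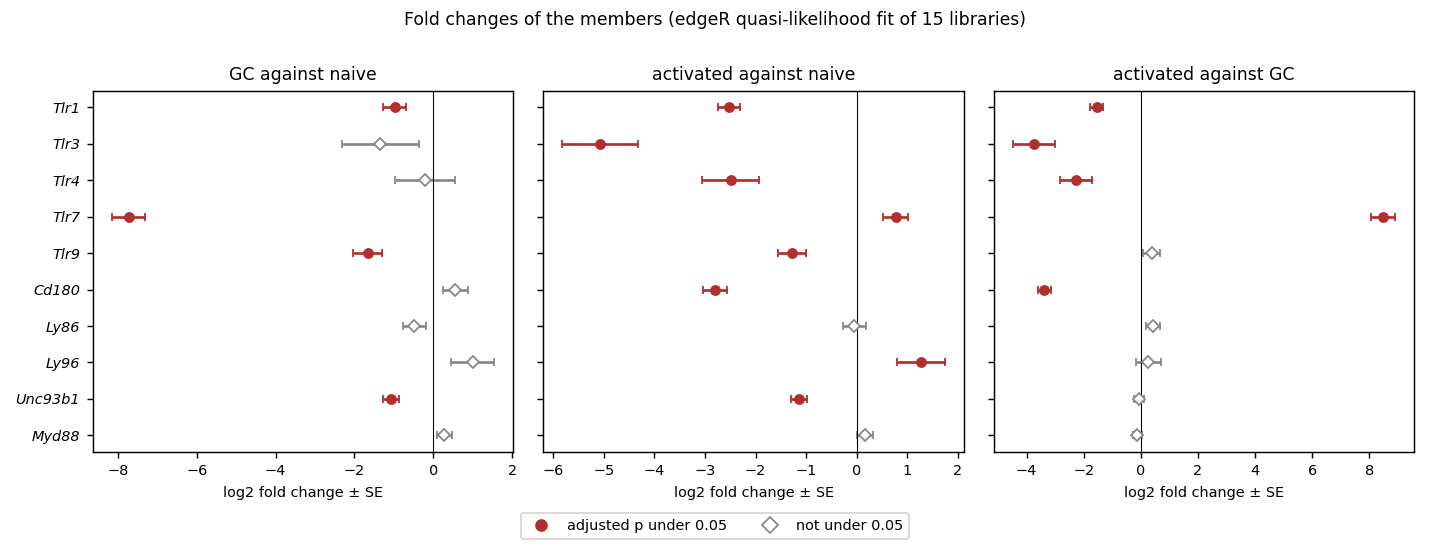
Log2 fold change ± SE (horizontal axes) of each member for GC against naive, activated against naive and activated against GC, from the edgeR fit of 15 libraries, with filled circles where the adjusted p was under 0.05. Tlr7 lies at -7.73 for GC against naive and at 8.49 for activated against GC, while Ly86 and Myd88 have unfilled markers in all 3 panels.

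Divided by exon length, the members could be ordered within a group. In activated cells the mean over 9 libraries was 166 ± 19.9 CPM per kilobase for Unc93b1 (SD), followed by 48.8 ± 14.2 for Ly86 and 25.3 ± 6.09 for Tlr7. Tlr7 was rank 10 in GC cells, at 0.0685 ± 0.0329 CPM per kilobase (SD, n = 3), and rank 7 in naive cells at 14.9 ± 3.11. Cd180 was rank 8 in activated cells at 6.60 ± 2.01 CPM per kilobase, rank 2 in GC cells at 68.5 ± 3.84 and rank 4 in naive cells at 46.4 ± 12.9. Several neighbours in these orders had ranges that overlapped. In activated libraries Tlr7 spanned 16.2 to 33.2 CPM per kilobase and Myd88 15.1 to 23.1, although Tlr7 was the higher in each library. From Myd88 through Tlr1, Ly96 and Tlr9 to Cd180, each range there overlapped that of the next in rank. The ranges of Tlr1 and Ly86 overlapped in GC, and those of Tlr1, Ly86 and Cd180 in naive, where Myd88, Tlr9 and Tlr7 overlapped as well.

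Ratios of CPM per kilobase were taken within each library for receptor and partner genes, and for the receptors Tlr7 and Tlr9. Cd180 to Ly86 was 0.0985 to 0.251 in the 9 activated libraries with a median of 0.122, then 1.99, 1.96 and 1.74 in GC and 0.847, 0.886 and 1.01 in naive libraries. None of the 3 ranges overlapped. A two-sided exact permutation test of each group of 3 against naive gave p = 0.1, the smallest that 3 against 3 allows. Tlr4 to Ly96 was 0.0128 to 0.127 in activated libraries, 0.246, 0.255 and 0.407 in GC and 2.49, 0.184 and 1.30 in naive, so only activated libraries were apart from the rest (exact permutation p = 0.4 for GC against naive, 0.1 for each activated group). Tlr7 to Tlr9 was 2.19 to 5.80 in activated libraries, 0.00614, 0.0143 and 0.0187 in GC and 0.888, 2.24 and 0.525 in naive. Against naive the exact permutation p of that ratio was 0.2 for CpG and 0.1 for CD40, LPS and GC. Naive replicate B again lay within the activated range of that ratio. Tlr7 to Unc93b1 was 0.0906 to 0.232 in activated libraries, 0.000184 to 0.000553 in GC and 0.0289 to 0.0688 in naive.

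**Figure D3:**
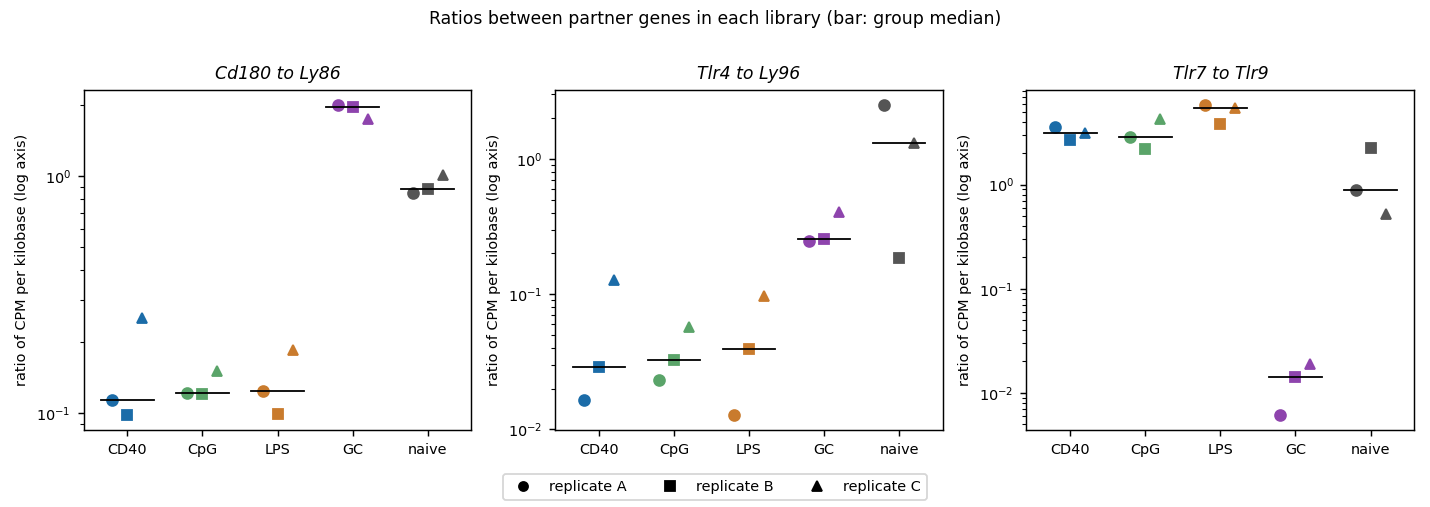
Ratio of CPM per kilobase (vertical axes, logarithmic) of Cd180 to Ly86, Tlr4 to Ly96 and Tlr7 to Tlr9 in each library by group, with a marker shape for each replicate letter and bars at group medians. Cd180 to Ly86 lies between 0.0985 and 0.251 in activated libraries, between 1.74 and 1.99 in GC and between 0.847 and 1.01 in naive.

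Marker lists of other cells that use these receptors were summed in each library. Of a 5-gene plasmacytoid dendritic cell list, 4 genes were detected in activated, 2 in GC and 3 in naive libraries, with sums of 35.4 to 81.7, 8.04 to 8.60 and 15.6 to 56.6 CPM. Its defining gene Siglech was at 0 in GC libraries and at or under 0.714 CPM elsewhere, and nearly all of the sum came from Bst2. The 8-gene monocyte and macrophage list summed to 26.8 to 48.0 CPM in activated libraries, with Csf1r at 0, to 10.3 to 16.4 CPM in GC with Cd14 at 0, and to 8.22 to 25.0 CPM in naive. A 5-gene list for conventional dendritic cells summed to 69.1 to 249 CPM, 45.7 to 49.4 CPM and 5.28 to 16.7 CPM in activated, GC and naive libraries, with Clec9a at 0 in all. Which of its other genes made up that sum is not given here, so the sum is not read as dendritic cells. A 6-gene marginal zone and B-1 cell list summed to 87.6 to 225 CPM in activated, 216 to 238 CPM in GC and 316 to 375 CPM in naive libraries. The part of these levels in the members' differences was not tested.

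Taken by stimulus, the 3 activated groups gave nearly the same picture against naive. In CD40 cells 6 members were lower and none higher, where 34.1% of all genes were called (14.3% lower and 19.8% higher). In CpG cells the same 6 were lower and none higher (33.6% called, 14.0% lower and 19.7% higher), and in LPS cells the same 6 were lower and Tlr7 higher (33.7% called, 14.2% lower and 19.5% higher). Cd180 was lower, at -2.83 ± 0.34, -2.81 ± 0.34 and -2.80 ± 0.34 in CD40, CpG and LPS cells (adjusted p = 2.35e-05, 2.55e-05 and 2.51e-05). Tlr1 was lower, at -2.53 ± 0.31, -2.66 ± 0.31 and -2.40 ± 0.31 (adjusted p = 2.43e-05, 1.64e-05 and 3.78e-05). The Tlr7 values were 0.76 ± 0.29, 0.72 ± 0.29 and 0.81 ± 0.29, with adjusted p of 0.0586, 0.0719 and 0.0454. Unc93b1, like Cd180 and Tlr1, was called lower for each stimulus in every alternative, while some other calls were lost without single libraries. Without CD40 replicate A, only Cd180, Tlr1 and Unc93b1 were called in CD40 cells, with Tlr3 at an adjusted p of 0.0524. The Tlr9 call was lost in CD40 cells without any CD40 library or naive A or C (adjusted p 0.055 to 0.144) and in CpG cells without any CpG library or naive A or C (0.0678 to 0.148). The Tlr4 call was lost without CD40 A or B or naive A or C in CD40 cells (0.0835 to 0.153), without CpG A or B in CpG cells (0.0741 and 0.0696), and without LPS A or B or naive A in LPS cells (0.056 to 0.0858). Tlr7 was not called in LPS cells without LPS A or C or naive B or C (0.0696 to 0.145), and was called in CD40 cells without CD40 B (0.0323) or naive A (0.0456) and in CpG cells without CpG B (0.0213).

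Between stimuli, none of the 10 members was called in a fit without the letters (0.0% of all genes called in each pair). At an unadjusted p under 0.05 edgeR gave 0 members for CD40 against LPS and 1, Tlr3, for each of CpG against CD40 and CpG against LPS, and DESeq2 called none. Libraries of the same letter deviated together among the activated libraries, and when the fit of those 9 libraries included the letter as a block, Tlr9 was called. It was lower in each LPS library, at 15.7, 17.3 and 21.3 CPM for A, B and C, than in the CD40 and CpG libraries of the same letter. CD40 against LPS gave 0.62 ± 0.14 (95% interval 0.335 to 0.898, adjusted p = 0.0491, with 0.28% of all genes called), and CpG against LPS gave 0.63 ± 0.14 (0.344 to 0.909, adjusted p = 0.0435, with 0.286% called). In a fit of all 15 libraries with the letter as a block neither was called (0.61 and 0.62, adjusted p = 1 each). The blocked fit of the 9 libraries was not repeated without single libraries. Over the 9 libraries CpG against CD40 gave 0.01 ± 0.14 for Tlr9 (-0.268 to 0.288, adjusted p = 0.995, with 0.172% called). No other member was called there, and 2 of their unadjusted 95% intervals left out 0, that of Tlr1 in CpG against LPS (-0.518 to -0.0786, adjusted p = 0.489) and that of Ly86 in CpG against CD40 (0.00411 to 0.323, adjusted p = 0.818). Intervals ran from -0.191 to 0.099 for Tlr7 and from -0.281 to 0.215 for Cd180 in CD40 against LPS, and from -0.785 to 0.852 for Tlr4 in CpG against LPS. For Tlr3 they were too wide to bound a difference, at -7.14 to 0.164 in CpG against CD40 and -6.11 to 0.587 in CpG against LPS.

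Libraries were also compared by letter. Letters A against B called 5 members (31.1% of all genes called), A against C 5 (23.4%) and B against C 7 (34.8%), in a fit of the 9 activated libraries with letter and stimulus. Only Tlr3, Tlr9 and Ly96 were called in none of the 3. Ly86 was lowest in A at 123 to 134 CPM, highest in B at 222 to 259 CPM, and 136 to 185 CPM in C (A against B -0.89 ± 0.08, adjusted p = 1.99e-09). Cd180 was likewise lowest in A, at 18.9 to 19.5 CPM, with B at 27.1 to 35.3 CPM and C at 34.6 to 42.4 CPM, ranges that overlapped (A against C -1.02 ± 0.12, adjusted p = 3.06e-07). Tlr4 was at 0.726 to 1.29 CPM in A, 1.46 to 2.11 CPM in B and 3.78 to 7.67 CPM in C (A against C -2.42 ± 0.41, adjusted p = 6.74e-05, and B against C -1.59 ± 0.40, adjusted p = 0.00251).

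Tlr7 was lowest in B, with 106 to 110 CPM in A, 66.0 to 77.7 CPM in B and 123 to 136 CPM in C (B against C -0.83 ± 0.07, adjusted p = 7.6e-10). Myd88 was lowest in B as well, and its A and C libraries were not told apart (A against C -0.07, adjusted p = 0.642), at 48.4 to 58.5 CPM in A, 38.8 to 45.2 CPM in B and 55.2 to 59.5 CPM in C (B against C -0.48 ± 0.09, adjusted p = 0.000151). Tlr1 ran the other way, with 30.7 to 42.9 CPM in A, 53.9 to 56.5 CPM in B and 28.5 to 38.3 CPM in C (B against C 0.78 ± 0.11, adjusted p = 1.95e-06). Unc93b1 was lowest in C, at 419 to 448 CPM, against 536 to 592 CPM in A and 499 to 541 CPM in B (A against C 0.38 ± 0.06, adjusted p = 1.19e-05). The B against C call for Cd180 (-0.31 ± 0.12, adjusted p = 0.0457) was lost without CD40 replicate B (adjusted p = 0.409), LPS B (0.106), CD40 C (0.295) or LPS C (0.123), and with DESeq2 (0.0997). The A against C call for Tlr7 (-0.27 ± 0.07, adjusted p = 0.006) was lost without LPS A (0.0668), Tlr1 was called there without CpG A (0.025), and Tlr9 was called in B against C without CpG C (0.0159). The plasma cell gene Jchain moved with the letters too, at 69.3 to 114 CPM in A, 17 to 19 CPM in B and 1540 to 2840 CPM in C, and its part in these differences was not tested. Jchain is 1 gene of a 6-gene plasma cell list that summed to 1140 to 4910 CPM in activated libraries. The other genes of that list are not given by letter here.

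**Figure D4:**
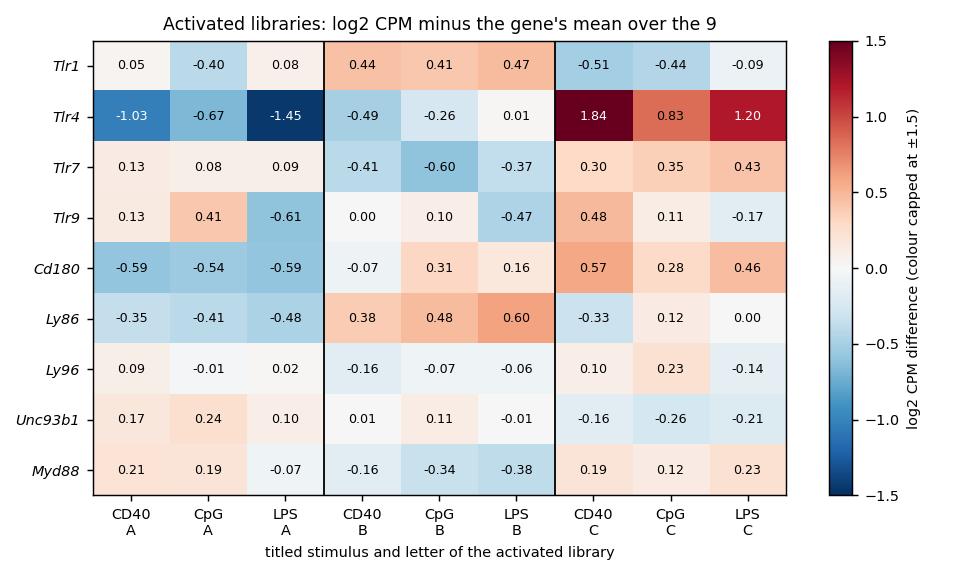
Log2 CPM minus the gene's mean over the 9 activated libraries, for the 9 members other than Tlr3, with libraries in columns by letter and titled stimulus and colour from blue (lower) to red (higher). Tlr4 runs from -1.45 in LPS A to 1.84 in CD40 C, Ly86 is highest in the B columns, and Tlr9 is lowest in the LPS column within each letter.

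Other genes of the pathway were counted from 3 lists. Of 10 further TLRs and co-receptors, only Tlr2, Tlr6, Tlr12 and Cd36 passed the filter, and Tlr5, Tlr11 and Lbp had no count in any library. Cd14, which hands lipopolysaccharide to TLR4 and MD-2, did not exceed 0.208 CPM in any library. Tlr2, the partner chain of Tlr1, averaged 3.43 ± 1.36 CPM in activated (SD, n = 9), 1.16 ± 1.09 CPM in GC and 10.3 ± 5.46 CPM in naive libraries (SD, n = 3 each) and was lower in GC cells, at -3.14 ± 0.80 (adjusted p = 0.00682, and -4.12 without GC replicate B). In activated cells it was lower, at -1.59 ± 0.56 (adjusted p = 0.0327), a call lost without any of 9 single libraries (adjusted p 0.0508 to 0.169). Tlr6, the alternative partner of TLR2, was higher in GC at 19.5 ± 2.08 CPM than in naive at 6.58 ± 3.85 CPM (1.57 ± 0.45, adjusted p = 0.0133), opposite to Tlr1. Tlr12 stood at 13.6 and 12.0 CPM in CD40 A and CpG A and at most 3.56 CPM in the activated libraries of B and C. Its level in LPS A is not given here, so letter A is not described as a whole. In activated cells it was 2.47 ± 0.84 against GC (adjusted p = 0.0322) and not called against naive (0.60 ± 0.74, adjusted p = 0.546). The call against GC was lost without CD40 A, CpG A, LPS A, GC A or GC C.

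Of 13 genes for folding, trafficking and processing of TLRs, 2 rose and 5 fell in GC against naive (17.9% of all genes higher and 16.5% lower), and 5 rose and 3 fell in activated against naive (23.4% higher and 19.4% lower). The adaptor complex subunit Ap3s1 rose in both, at 40.4 ± 7.18 CPM in activated, 38.9 ± 2.95 CPM in GC and 6.87 ± 3.29 CPM in naive libraries (2.55 ± 0.28 and 2.50 ± 0.30 against naive, adjusted p = 4.27e-06 and 1.65e-05). Ctss, a cathepsin that can cleave endosomal TLRs, fell in both, at 160 ± 15.1, 201 ± 6.90 and 504 ± 93.5 CPM (activated -1.66 ± 0.12, adjusted p = 5.65e-08, and GC -1.32 ± 0.16, adjusted p = 1.42e-05). Ctsl, another such protease, was low throughout and fell in GC to 0.0788 ± 0.0689 CPM, against 3.91 ± 2.66 CPM in naive (adjusted p = 0.000156). The endolysosomal transporter Slc15a4 and its partner 5430427O19Rik, the mouse TASL gene, fell in activated cells, at -1.57 ± 0.16 (adjusted p = 2.21e-06) and -2.14 ± 0.33 (adjusted p = 0.000109). Hsp90b1, the chaperone GRP94 that folds most TLRs, was higher in activated cells at 951 ± 501 CPM, against 354 ± 66.1 CPM in naive (1.42 ± 0.44, adjusted p = 0.0195), a call lost without naive replicate A (adjusted p = 0.0795) or B (0.0708). Its co-chaperone Cnpy3 fell in GC cells, at -1.13 ± 0.24 (adjusted p = 0.00203).

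Of 28 adaptors, kinases and transducers, 2 rose and 12 fell in GC against naive (34.5% of all genes called, 17.9% higher and 16.5% lower). In activated against naive 3 rose and 10 fell (42.9% of all genes called, 23.4% higher and 19.4% lower). The brake Irak3 was at 13.1 ± 3.65 CPM in activated, 1.30 ± 1.10 CPM in GC and 56.0 ± 0.347 CPM in naive libraries, with fold changes of -2.10 ± 0.33 in activated and -5.43 ± 0.54 in GC cells (adjusted p = 0.000146 and 2.72e-06). The kinase Irak2 fell, at -2.20 ± 0.28 in activated and -2.37 ± 0.39 in GC cells (adjusted p = 1.96e-05 and 0.000275). Ikbke, an IKK-related kinase, moved in opposite directions, with 99.5 ± 18.7 CPM in activated, 6.44 ± 1.72 CPM in GC and 43.7 ± 28.2 CPM in naive libraries (1.19 ± 0.31, adjusted p = 0.0067, and -2.76 ± 0.38, adjusted p = 6.25e-05). The activated rise of Ikbke was not called with libraries summed per letter (adjusted p = 0.0899), and without naive replicate B its values were 1.86 in activated and -2.09 in GC cells. Without GC replicate C the Irak3 value in GC cells was -6.27. The adaptor Ticam2 links TLR4 to TRIF. It averaged 25 ± 5.12 CPM in activated, 9.61 ± 2.43 CPM in GC and 1.08 ± 1.04 CPM in naive libraries (SD). The lowest naive library held 0 CPM, so the size of the Ticam2 rise rests on naive values near 0. Ticam2 rose by 4.53 ± 0.79 in activated and 3.15 ± 0.79 in GC cells (adjusted p = 0.00043 and 0.00698). Without naive replicate C these values were 5.41 and 4.07. Tirap, which links TLR2 and TLR4 to MYD88, rose by 1.51 ± 0.40 in GC cells (adjusted p = 0.00888) and was not called in activated cells (0.28, adjusted p = 0.518). In a fit of GC and naive libraries alone the Ticam2 rise was not called (adjusted p = 0.126), nor was that of Tlr6 (0.0555).

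The ubiquitin-editing enzyme Tnfaip3 (A20) fell in GC cells, at -2.92 ± 0.54 (adjusted p = 0.00106). Naive libraries A, B and C held 143, 493 and 86.6 CPM of it, and without naive replicate B the value was -1.85 (adjusted p = 0.000408). The inhibitory receptor Sigirr and the NF-kappaB inhibitor Nfkbia fell in GC cells too, at -1.66 ± 0.34 (adjusted p = 0.00152) and -1.65 ± 0.43 (adjusted p = 0.00914, and 0.0546 without GC replicate A). The kinase Ikbkb and the ubiquitin ligase Traf3 fell there, at -1.50 ± 0.27 (adjusted p = 0.000623) and -1.03 ± 0.17 (adjusted p = 0.000312). In activated cells the transcription factor Irf3, which acts after TLR3 and TLR4, fell, at -1.10 ± 0.11 (adjusted p = 1.14e-06). Irf7, which acts after TLR7 and TLR9, was 3.87 to 5.92 CPM in the activated libraries lettered A and B, 47.1 to 61.3 CPM in those lettered C, 32.2 to 39.9 CPM in GC and 40.9 to 57.0 CPM in naive libraries, and was not called against naive (-1.22 ± 0.88, adjusted p = 0.288).

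**Figure D5:**
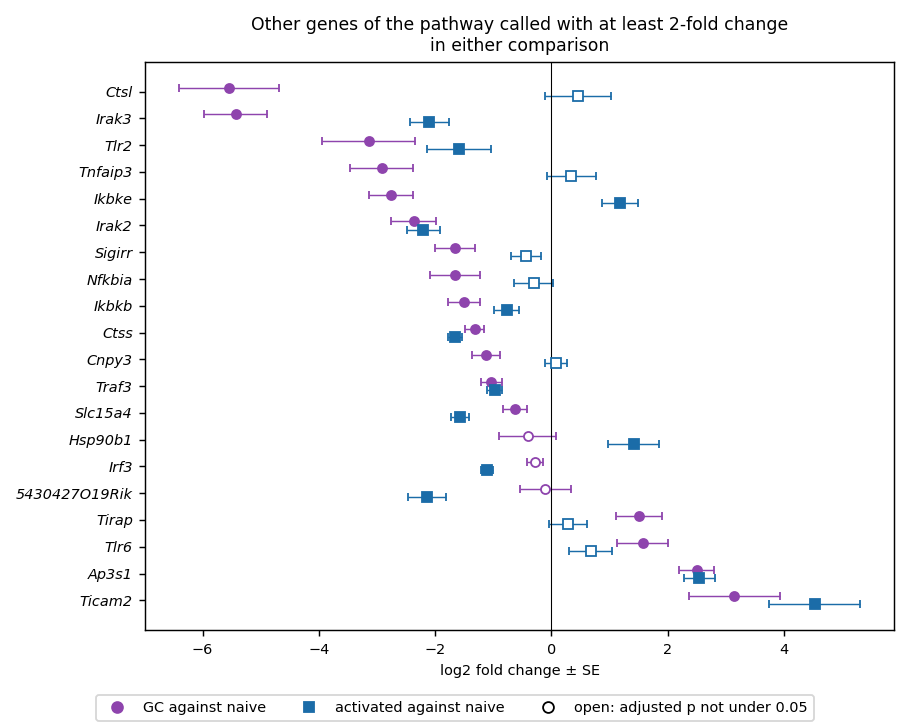
Log2 fold change ± SE (horizontal axis) of the 20 listed pathway genes other than the members that were called with at least 2-fold change in GC against naive (purple circles) or activated against naive (blue squares), with open markers where the adjusted p was not under 0.05. Irak3 lies at -5.43 for GC and -2.10 for activated, Ikbke on opposite sides of 0, and Ticam2 at 3.15 and 4.53.

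Among 12734 genes compared by the Pearson correlation of log2 CPM over the 15 libraries, up to 2 of those most like each member are named as a description, since libraries of a group share their state. Tlr7 was followed most closely by Adam19 (r = 0.994) and Gm4070 (0.991), and Cd180 by Sh3kbp1 (0.988) and Fam111a (0.982). Tlr1 had Clk1 (0.983) and Carns1 (0.98), and Tlr4 had Cst3 and Phf11b (0.969 each). Likeness was weaker for Unc93b1, with Zbtb24 (0.967) and Hvcn1 (0.965), Ly96, with Lap3 (0.946), Tlr3, with Map4k5 (0.934) and Dph2 (0.93), and Tlr9, with Usp19 (0.925) and Ndst1 (0.924). Ly86, with Unc13a (0.874) and Cep170 (0.873), and Myd88, with Prpf19 (0.853) and Nubp2 (0.848), had the least close companions. No member was among the 2 genes most like another member.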

How the data were processed

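The authors deposited a table of raw read counts with 54838 Ensembl genes for 15 libraries made with a strand-aware poly(A) kit. STAR 2.7.10a, featureCounts 2.0.6, DESeq2 and mm10/GRCm38 are named by the submitters' processing notes, while the annotation release, the strand setting and the handling of reads with several matches are not given in the sources used here. GENCODE M21 (GRCm38) gave symbols, positions and exon lengths and matched 54809 IDs. Counts were scaled by TMM, filtered with filterByExpr (17144 genes kept) and fitted in R 4.3.3 with edgeR 4.0.16 (glmQLFit, robust, 1 mean per group, no block). Tests were two-sided glmQLFTest with Benjamini-Hochberg adjustment over all genes tested and a threshold of 0.05, and the code was tested on simulated data. The activated groups were averaged with equal weight against naive and GC. Letters were compared in a second fit of the 9 activated libraries with titled stimulus (15727 genes). Levels per length are CPM per kilobase of exon. Totals of 25397624 to 36272197 counts leave counting error small except near 0.

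Members, lists and rules were chosen with earlier results of these data known. All 10 members were named in every comparison, and other pathway genes were named where called with at least 2-fold change in GC or activated against naive. Likeness was computed over 12734 genes, and 1 of the genes most like a member is not reported here. Alternatives were RLE size factors, plain totals, no filter, DESeq2 1.42.0, fits of the compared groups alone, replicate blocks, summing per letter, the letter fit without stimulus, and leaving out each library. Letters were taken to pair activated libraries only, since deviations from group means correlated at 0.362 to 0.495 between activated libraries of 1 letter and at -0.0696 to 0.0752 between other libraries of 1 letter. Intervals and floors cover counting error only where they rest on counts.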

Additional observations from a re-analysis of the deposited data

Results flagged for a closer look

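Tlr9 was called between stimuli in the fit of the 9 activated libraries with the letter as a block. The log2 fold change was 0.616 for CD40 against LPS and 0.626 for CpG against LPS (edgeR's quasi-likelihood test, adjusted p = 0.0491 and 0.0435), with the LPS library lowest in each of the 3 letters. Without the block both were close in size, at 0.62 and 0.62, with an adjusted p of 1. A block over all 15 libraries gave 0.613 and 0.623 and did not call either (adjusted p = 1). The blocked fit of the 9 libraries was not repeated without single libraries, with other scalings or with DESeq2.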

How the results depend on the processing

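Of the results recomputed under alternatives, 1890 of 1979 values kept their side of the threshold, 72 lost the call and 17 gained it. These values include results that were not called, among them the members between stimuli, so the share kept is not one of called results. The pathway genes among them entered only where called. The sign changed in 92 values, all uncalled in both fits, and in none that was called in either. In activated against GC the same 5 members were called in every alternative. Activated against naive called 4 members with libraries summed per letter, against 8, and CD40 against naive called 3 with only those groups fitted, against 6. Both fits hold fewer units, and summing also stops counting activated libraries of 1 letter as replicates. The part of either in the lost calls was not tested. With the replicate block over the 9 activated libraries, CD40 against LPS and CpG against LPS called 1 member each, Tlr9, against 0. With the replicate block over all 15 libraries Tlr7 was also called in CD40 against naive (0.72, adjusted p = 0.0372), and no other member's call changed with the block. Leaving out single libraries gave 3 to 5 members in GC against naive, 6 to 8 in activated against naive and 5 in activated against GC. CD40, CpG and LPS against naive gave 3 to 7, 4 to 7 and 5 to 7. Comparisons between stimuli gave 0, in fits without the block only. Letters A against B, A against C and B against C gave 5, 4 to 6 and 6 to 8. Over all genes the calls moved in these fits as well. GC against naive called 2731 higher and 1849 lower of 18083 without GC A, and 4261 and 2445 of 18055 without naive C. Activated against naive called 3355 and 3098 of 18054 without naive A, and 5005 and 2972 of 18055 without naive C. Activated against GC called 2393 and 2491 of 18083 without GC A, and 3074 and 3142 of 18181 without CD40 C.

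Over all genes, calls fell to 3530 for activated against naive with libraries summed per letter, against 7348, and to 3005, 3137 and 3349 for CD40, CpG and LPS against naive with only those groups fitted, against 5849, 5768 and 5779. Without CD40 B, CD40 against naive called 2887 higher and 1763 lower of 18165 genes, and without naive C 4417 and 2169 of 18055. CpG against naive called 2899 and 1644 of 18236 without CpG B, and 4449 and 2096 of 18055 without naive C. LPS against naive called 2884 and 1663 of 18205 without LPS B, and 4456 and 2165 of 18055 without naive C. Between stimuli edgeR without the block called 0 genes (1 for CpG against LPS without the low-count filter), with 115, 92 and 71 at an unadjusted p under 0.05 for CD40 against LPS, CpG against CD40 and CpG against LPS, and DESeq2 called 1 in each. Letters A against B called 1965 higher and 1765 lower of 16592 genes without CpG B, and 2210 and 1990 of 16414 without CD40 A. A against C called 1417 and 1371 of 16478 without LPS A, and 1640 and 1559 of 16394 without CpG C. B against C called 2130 and 2133 of 16592 without CpG B, and 2508 and 2496 of 16394 without CpG C. Of the 28 adaptors, kinases and transducers, 6 were called in activated against naive with libraries summed per letter, against 13. The 4 tested further TLRs and co-receptors gave 0 to 3 calls across alternatives. Among the members, depth limits Tlr3 in activated cells and Tlr7 in GC cells, whose libraries held at most 20 and 14 counts.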
